A study of Drosophila melanogaster with 9 samples.

Results

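Axon guidance in the fly embryo rests on receptors that read attractive and repellent cues at the midline of the nerve cord. Slit, secreted by midline cells, repels axons through the Robo receptors, and Netrins attract them through Frazzled or repel them through Unc-5. Commissureless lets an axon cross by keeping Robo off its surface. robo2 encodes a Slit receptor that helps place axons at their distance from the midline, and the Slit and Robo system also acts in the heart, trachea and muscle. Dscam1 encodes a receptor of the immunoglobulin superfamily, known for the many isoforms that its alternative exons give and for its roles in axon guidance and in keeping the branches of a neuron apart.

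The genes were chosen by symbol from 10 receptors and ligands: robo1, robo2, robo3, sli, comm, fra, NetA, NetB, unc-5 and Dscam1. Of these, 2 matched a row of the deposited table of 10221 genes, namely robo2 (FBgn0002543, chromosome arm 2L) and Dscam1 (FBgn0033159, chromosome arm 2R). The other 8 are not analysed here. Both passed the filter on low values and were among the 6190 genes tested.

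Total RNA came from pools of more than 200 whole Drosophila melanogaster embryos, stage 16 until the trachea fills with air (AFT). The 3 genotypes had 3 biological replicates each, 9 libraries in all, and every genotype carried the Insc-Gal4 driver, which is active in neuroblasts, the cells that divide to make the nervous system. The control was Insc-Gal4 over OregonR chromosomes. Quad embryos carried the driver with UAS-ase, UAS-Kr, UAS-wor and UAS-SoxN. Hexa embryos carried the same UAS set with hb and nub added. There was no group with transgenes and no driver. The labels give each genotype its own experiment number, so experiment, stock background and misexpression cannot be told apart. Column headers of 2 control libraries in a measure not used here name another driver, da. In whole embryos, fewer cells of a type and less RNA per cell cannot be told apart either.

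Deposited counts summed to between 8555639 and 11687961 reads per library. Levels below are RPKM (reads scaled to transcript length and library depth), which the authors deposited on a log2 scale. They are given per library in the order 1, 2 and 3 and then as mean ± SD over n = 3. Fold changes are differences of log2(RPKM + 0.1) with their standard error (SE). Adjusted p-values are from limma over all 6190 genes, with Benjamini-Hochberg adjustment and a threshold of 0.05.

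The libraries differed in the level of long transcripts, and these values are given beside the results on robo2 and Dscam1, whose longest annotated transcripts measure 6.21 and 9.14 kb. For each library the median log2 difference from the 9-library mean was taken over 500 other genes with transcripts of at least 5 kb and over 3452 genes under 2 kb. Long minus short came to -0.02, 0.43 and -0.08 for the control libraries, 0.33, 0.31 and 0.34 for Quad and -0.32, -0.84 and -0.16 for Hexa. Control 2 thus stood apart from the other controls on the side of Quad, and Hexa 2 was the lowest of all 9. Heat shock genes also differed: the average log2 level of 16 of them, set against that of the controls, was 0.84, 2.28 and 2.62 in Hexa, between -0.66 and 0.41 for control libraries and between -0.83 and 0.74 for Quad.

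robo2 was highest in Quad and lowest in Hexa. The control libraries held 8.37, 11.2 and 8.43 RPKM, the Quad libraries 16.1, 13.7 and 17.9, and the Hexa libraries 6.19, 1.45 and 9.18. All 3 Quad libraries lay above the other 6, while the control and Hexa ranges overlapped and Hexa 2 was far below its group. The control mean was 9.35 ± 1.64 (SD, n = 3), the Quad mean 15.9 ± 2.12 and the Hexa mean 5.61 ± 3.90. In the count column robo2 had 0 reads in every library. Its RPKM, multiplied by its transcript length and by the library's reads per RPKM and kilobase, nevertheless came to whole numbers within 0.015 reads in all 9 libraries. The control libraries came to 4782, 6496 and 4678 reads, Quad to 9440, 7169 and 9827, and Hexa to 2544, 573 and 5045, so the low value of Hexa 2 still rested on 573 reads.

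Dscam1 followed the same order of means with a different spread. The control libraries held 13.2, 22.9 and 12.9 RPKM, the Quad libraries 23.0, 23.6 and 25.7, and the Hexa libraries 14.2, 10.2 and 16.2. Control 2 lay just under the lowest Quad library, and the other controls lay within the range of Hexa. The control mean was 16.3 ± 5.71 (SD, n = 3), the Quad mean 24.1 ± 1.42 and the Hexa mean 13.5 ± 3.08. In RPKM, Dscam1 was above robo2 in every library, by 1.43 to 2.30 times in 8 of them and by 7.01 times in Hexa 2.

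**Figure D1:**
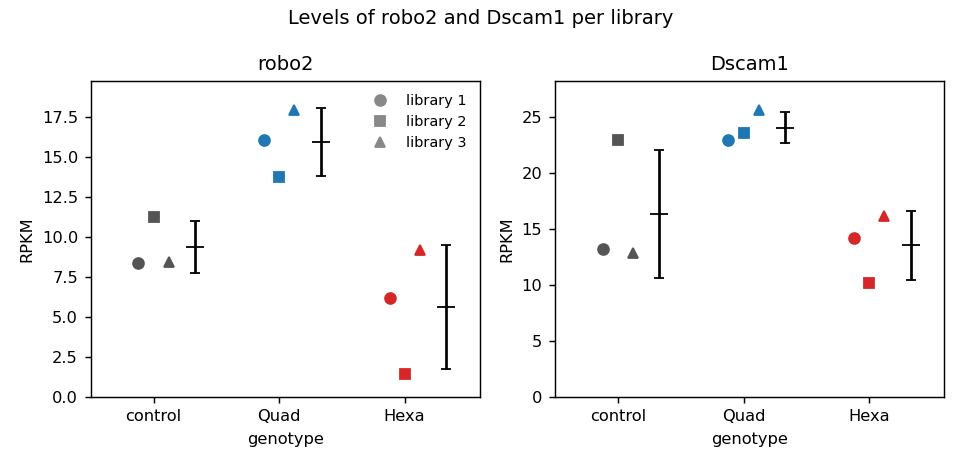
RPKM of robo2 and Dscam1 (vertical axes) in the 9 libraries by genotype, with symbols for library 1, 2 and 3 and the black mark and bar showing the mean and SD of 3 libraries. The Quad libraries of both genes lie above all Hexa libraries, control 2 is the highest control, and Hexa 2 is the lowest library.

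Hexa was compared with Quad to see what differed once hb and nub were added to the misexpressed set. Both genes were lower in Hexa, where 9.63% of all genes tested were called lower and 23.1% were called in either direction. Their Hexa and Quad ranges did not overlap. The share of all genes tested whose groups lie apart was not computed, here or for the genes below. robo2 fell by 1.82 on the log2 scale (SE 0.56, 95% interval -3.09 to -0.55, adjusted p = 0.0468 in limma), and Dscam1 fell by 0.85 (SE 0.24, interval -1.38 to -0.32, adjusted p = 0.0342). Neither call was firm. The robo2 call was lost when any 1 control, any 1 Quad library or Hexa 1 was left out (adjusted p up to 0.127). It was kept without Hexa 2, with the fall then at 1.06 (log2 -1.06, adjusted p = 0.0215), and without Hexa 3 (log2 -2.35, adjusted p = 0.0151). The Dscam1 call was lost without any 1 Quad library, Hexa 1 or Hexa 2 (adjusted p up to 0.104). With the replicate numbers as a block neither passed (adjusted p = 0.0587 for robo2 and 0.0652 for Dscam1). These numbers are not known to pair libraries across genotypes, as each genotype has its own experiment number.

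The level of long transcripts moved with both falls. Among the 500 long genes 194 were called lower in Hexa than in Quad (38.8%) and 2 higher, with a median log2 of -0.49, whereas 2.26% of the 3452 short genes were lower and 20.3% higher (median log2 0.26). After the length trend of each library had been subtracted, an adjustment chosen after seeing the data, robo2 was at log2 -1.38 (adjusted p = 0.0751) and Dscam1 at log2 -0.30 (adjusted p = 0.071). In a fit with the heat shock level as a covariate they stood at log2 -1.56 (adjusted p = 0.399) and -0.51 (adjusted p = 0.477). Heat shock levels were higher in every Hexa library than in any control or Quad library. That covariate thus overlaps with genotype, and its fit cannot separate them.

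**Figure D2:**
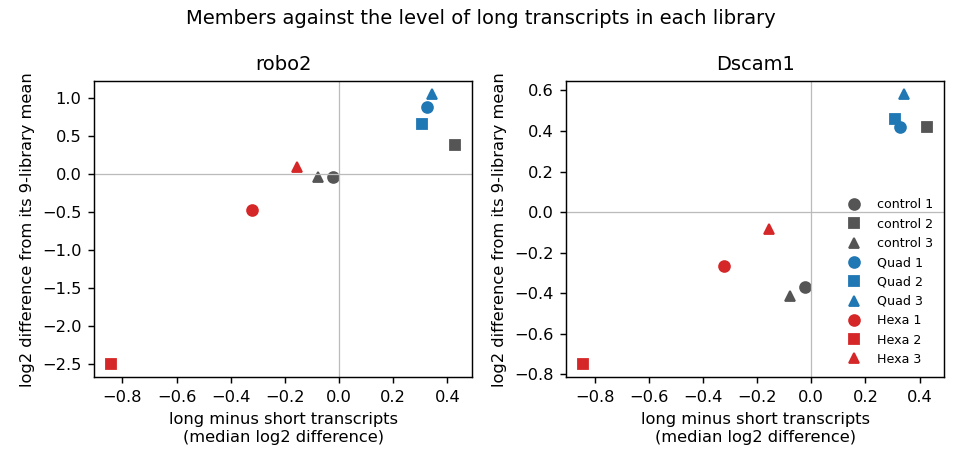
For each library, the log2 difference of robo2 (left) and Dscam1 (right) from their 9-library means against the median log2 difference of long minus short transcripts. Colours give the genotype and symbols the library number, the 3 Quad libraries and control 2 lie at the upper right in both panels, and Hexa 2 lies at the lower left.

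Quad was compared with the control to see what the 4-gene misexpression differed in. Both genes had higher means in Quad, and neither passed the test, in a comparison with 4.68% of all genes called, 2.16% higher and 2.52% lower. robo2 differed by log2 0.76 (SE 0.56, interval -0.51 to 2.03, adjusted p = 0.493) and Dscam1 by log2 0.61 (SE 0.24, interval 0.07 to 1.14, adjusted p = 0.197). The spread that limma gave robo2 included Hexa 2. In a fit of the Quad and control libraries alone robo2 passed at the same log2 0.76 (adjusted p = 0.0444), and without Hexa 2 it stood at adjusted p = 0.0546. Dscam1 passed when control 2 was left out (log2 0.88, adjusted p = 0.0293).

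With both control 2 and Hexa 2 left out, a choice made after seeing the data, robo2 was called at log2 0.90 (adjusted p = 0.0215) and Dscam1 at log2 0.88 (adjusted p = 0.00259) in Quad against control. The count of all genes called then went from 290 to 831. With the length trend subtracted and all libraries kept, robo2 differed by log2 0.60 (adjusted p = 0.470) and Dscam1 by log2 0.38 (adjusted p = 0.0605). On that scale robo2 stood at 0.05, 0.08 and 0.06 in the controls, relative to its 9-library mean, against 0.71, 0.45 and 0.81 for Quad. The Hexa libraries stood at -0.31, -2.001 and 0.14.

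Hexa was compared with the control, which shares its control libraries with the previous comparison. Neither gene passed here, beside 32.3% of all genes called, of which 13.1% of all genes were lower. robo2 differed by log2 -1.06 (SE 0.56, interval -2.33 to 0.21, adjusted p = 0.153). Without Hexa 2 that difference shrank to log2 -0.29 (adjusted p = 0.283), and without Hexa 3 it grew to -1.58 and passed (adjusted p = 0.0453). Dscam1 differed by log2 -0.24 (SE 0.24, interval -0.78 to 0.29, adjusted p = 0.409), with a positive sign when control 2 was left out (log2 0.03, adjusted p = 0.910) or when the length trend was subtracted (log2 0.08, adjusted p = 0.533).

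For Dscam1 the 2 deposited measures disagreed. The count column held 3393, 4690 and 3406 reads for the control libraries, 5040, 4922 and 4237 for Quad and 3298, 3674 and 4877 for Hexa. As CPM, counts scaled to the total of each library, this was 290.3, 401.7 and 300.4 for the control libraries, 439.6, 478.0 and 400.2 for Quad and 385.5, 404.5 and 428.1 for Hexa, so here the ranges of Hexa and Quad overlapped, with Hexa 1 below every Quad library. On the counts Hexa was at log2 -0.07 against Quad (adjusted p = 0.774, edgeR) and at log2 0.32 against the control (adjusted p = 0.113), the sign opposite to RPKM. Quad against control kept its direction at log2 0.39 (adjusted p = 0.169).

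The annotation used here gives Dscam1 75 transcripts of 7.69 to 9.14 kb and robo2 2 transcripts of the same length. For the longest Dscam1 transcript the counts were 24.0 to 32.4% of the reads its RPKM implies in the controls, 20.4 to 27.1% in Quad, and 37.2, 38.2 and 62.1% in Hexa, with Hexa 2 the highest. How the reads of its isoforms were assigned is not given in the sources used here. A pair of antisense genes, CR44071 and CR45129, overlap Dscam1 in the annotation and reached at most 0.301 and 0.397 RPKM. An antisense gene, CR44897, and a non-coding gene on the same strand, CR44898, overlap robo2 and are not analysed here, and whether counting used strand is not given in the sources used here.

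**Figure D3:**
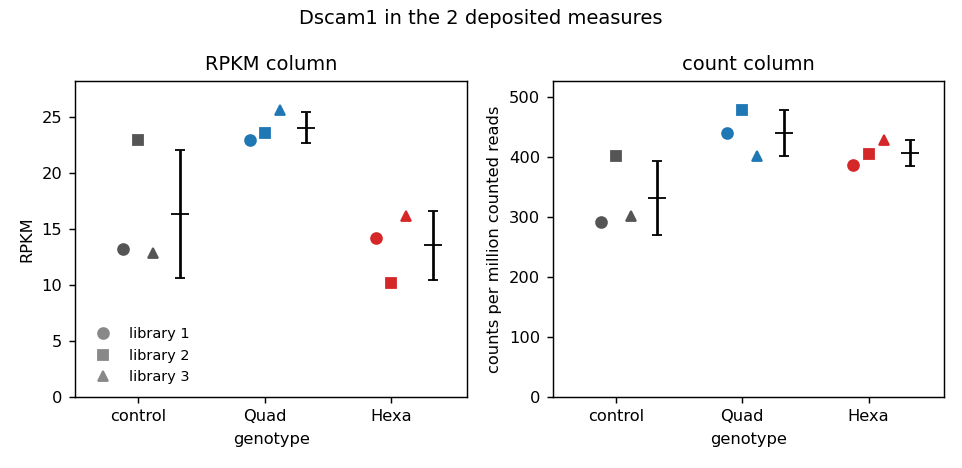
Dscam1 in the deposited RPKM (left) and in the deposited counts as CPM (right), by genotype, with symbols for library 1, 2 and 3 and the mean and SD of 3 libraries beside them. In RPKM the Hexa libraries lie below Quad, and in the counts they lie between 385.5 and 428.1, within reach of Quad at 400.2 to 478.0.

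The genes whose profile over the 9 libraries was most like that of each receptor were found by the root mean square difference of centred log2(RPKM + 0.1). Tested genes whose symbol is only a CG or CR number were left out of this search, as were robo2 and Dscam1. Nearest to Dscam1 were tnc, which encodes an extracellular matrix protein bound by integrins (difference 0.07 on the log2 scale), stan, a cadherin of planar polarity and axon growth (0.10), and ds, a large protocadherin (0.11). Their longest transcripts measure 10.4, 13.0 and 12.4 kb. The mean of tnc was 4.66 RPKM for the controls, 6.53 for Quad and 3.85 for Hexa. Nearest to robo2 were waw (0.31), the Mediator subunit gene MED23 (0.32) and h-cup (0.33), with longest transcripts of 5.45, 4.68 and 1.545 kb. Their differences were larger than those of the Dscam1 neighbours, and robo2 differed from Dscam1 by 0.65.

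Other genes of the guidance pathways were taken from 8 lists of 102 genes, of which 43 had a row and all 43 were tested. In Hexa against Quad 19 of the 43 fell and 1 rose, with a median of log2 -0.43 against 0.06 over all genes tested, of which 9.63% were lower and 13.5% higher. The 1 that rose was ftz, which passed the filter on low values only through Hexa, so the filter itself favoured its rise. It is also among the genes counted as higher in Hexa against control. In Hexa against control 9 fell and 2 rose (median log2 -0.14 against 0.03), where 13.1% of all genes were lower and 19.1% higher, and in Quad against control none fell and 1 rose (median log2 0.22 against 0.02), where 2.52% of all genes were lower and 2.16% higher. Of the 19 that fell in Hexa against Quad, 12 belonged to the 20 pathway genes with transcripts of at least 5 kb and 7 to the 18 of 2 to 5 kb, with none of the 5 shorter genes falling. Of tested genes with an annotated length, robo2 and Dscam1 left out and pathway genes included, 38.8%, 15.8% and 2.26% were lower in these length classes. On the deposited counts edgeR gave 6 falls among 36 genes with a value (median log2 -0.15) and DESeq2 8 among 40 (median log2 -0.17). The replicate block gave 6 falls, no filter on low values 12 and TMM factors on RPKM 21. Leaving out 1 library at a time gave between 1 and 22 falls, and subtracting the length trend left 5 lower and 1 higher, again ftz. In Hexa against control the same subtraction gave 8 lower and 7 higher with a median of log2 0.07, and leaving out control 2 and Hexa 2 gave 3 lower and 5 higher. With the heat shock covariate none of the 43 passed in either Hexa comparison, at a median log2 of -0.28 against Quad and -0.05 against the control. The covariate overlaps with genotype, so the loss of calls in that fit cannot separate them. Without control 2 and Hexa 2 there were 18 falls in Hexa against Quad, and in Quad against control 17 of the 43 were higher.

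The list of semaphorins, which mostly repel axons, their plexin receptors and partners of these held 5 falls among 7 tested in Hexa against Quad. In Hexa against control 3 of the 7 fell. Of all genes tested, 9.63% and 13.1% were lower in these comparisons. Sema5c had 35.1, 34.1 and 32.1 RPKM in the control libraries, 37.3, 34.7 and 39.1 in those of Quad and 22.7, 17.5 and 25.6 in those of Hexa. Its Hexa libraries lay below all the others. It fell by 0.77 against Quad (adjusted p = 0.00800) and by 0.63 against the control (adjusted p = 0.0117) on the log2 scale, and it was the only one of the 19 still called in all 9 fits that left out 1 library. On the deposited counts its fold was larger and did not pass in edgeR, at log2 -2.02 against Quad (adjusted p = 0.0745) and -1.78 against the control (adjusted p = 0.0816). DESeq2 called it against Quad (adjusted p = 0.0419) and not against the control (adjusted p = 0.0643). Sema1b (log2 -0.67), the receptor gene PlexA (log2 -0.81) and Mical (log2 -1.05), an actin-oxidising enzyme that acts downstream of PlexA, also fell against Quad, with adjusted p between 0.0165 and 0.0305. Of these, Sema1b was still called with the length trend subtracted (log2 -0.34, adjusted p = 0.0375), as was Sema5c (log2 -0.44, adjusted p = 0.0229).

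In Hexa against Quad, where 9.63% of all genes tested were lower, 3 of 5 tested partners of Robo and Slit fell and none rose. These were RhoGAP93B, a GTPase-activating protein that acts downstream of Robo (12.3 against 18.8 RPKM, log2 -0.65, adjusted p = 0.0305), Abl, a tyrosine kinase shared by Robo and Frazzled signalling (log2 -0.82, adjusted p = 0.0368), and the heparan sulfate proteoglycan gene dally (log2 -0.45, adjusted p = 0.0379). comm2, a relative of comm with similar activity, had 25.1 ± 0.663 RPKM in Hexa and 25.8 ± 2.06 in Quad and did not pass (log2 -0.04, adjusted p = 0.787). Of 7 genes of the Netrin, Frazzled and Dscam list, Abl and Dap160 fell against Quad, the latter with the opposite sign on the deposited counts (log2 0.0913, adjusted p = 0.806, edgeR). Dscam2, Dscam3 and Dscam4, the paralogs of Dscam1, did not pass in any of the 3 comparisons. Of 4 receptor tyrosine phosphatases, axon guidance receptors of motor axons, Lar (log2 -0.70), Ptp10D (log2 -0.87) and Ptp99A (log2 -0.54) fell against Quad, with adjusted p between 0.0193 and 0.0407. Of the 500 genes with transcripts of at least 5 kb, 38.8% were lower. With the length trend subtracted, Ptp10D was still called (log2 -0.34, adjusted p = 0.0412). RhoGAP93B, Abl, dally, Dap160, Lar and Ptp99A were not (log2 -0.25 to -0.05, adjusted p 0.136 to 0.686). These falls, that of Ptp10D included, were called in 2 to 5 of the 9 fits that left out 1 library.

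In the ephrin and Wnt guidance list 3 of 5 fell against Quad, the Wnt receptor gene fz2 (log2 -0.75, adjusted p = 0.0171), Wnt5 (log2 -0.60, adjusted p = 0.0292) and Ephrin (log2 -0.62, adjusted p = 0.0425). Of all genes tested, 9.63% were lower in that comparison. Wnt5 did not fall in the deposited counts (log2 0.13, adjusted p = 0.710, edgeR). Of 9 adhesion and fasciculation genes the integrin genes mys (log2 -0.55) and if (log2 -0.59) and the leucine-rich repeat gene trn (log2 -0.38) fell, at adjusted p from 0.0140 to 0.0396. With the length trend subtracted, Wnt5 was still called (log2 -0.30, adjusted p = 0.0487). fz2, Ephrin, mys, if and trn were not (log2 -0.33 to -0.16, adjusted p 0.0522 to 0.221). These falls, that of Wnt5 included, were called in 2 to 8 of the 9 fits that left out 1 library. The only cytoskeletal effector tested, futsch, did not pass in any comparison.

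Transcription factors of motor and midline axon choices went both ways. exex encodes the Hb9 homeodomain factor of motor neurons, which in the fly is known to be needed for robo2 expression in some of them. The control libraries held 14.3, 15.9 and 12.4 RPKM, Quad 13.4, 13.4 and 14.4, and Hexa 9.57, 8.76 and 10.4, with every Hexa library below the other 6. It fell by 0.56 on the log2 scale against the control (adjusted p = 0.0113) and by 0.52 against Quad (adjusted p = 0.0204). The fall against the control was called in all 9 fits that left out 1 library and with the length trend subtracted (log2 -0.51, adjusted p = 0.00454). The fall against Quad was called in 4 of those 9 fits and lost without any 1 Quad library, Hexa 1 or Hexa 2 (adjusted p up to 0.0793). nerfin-1, a zinc-finger gene needed for early axon guidance, rose in both misexpressions, by log2 0.64 in Quad (adjusted p = 0.0356) and log2 0.51 in Hexa (adjusted p = 0.0269). The call in Quad was lost without any 1 control, any 1 Quad library or Hexa 1 (adjusted p up to 0.136), and that in Hexa without any 1 control or Hexa 1 (adjusted p up to 0.0607). The pair-rule gene ftz had 0.0378 to 0.0666 RPKM in the controls, 0.140 to 0.297 in Quad and 0.553 to 0.739 in Hexa, so it passed the filter on low values only through Hexa and is given as values. Its fold change depended on the pseudocount, at log2 2.24 against the control as fitted, 0.63 with a pseudocount of 1 and 3.33 with 0.01. HGTX, eve and unc-4 did not pass in any comparison.

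**Figure D4:**
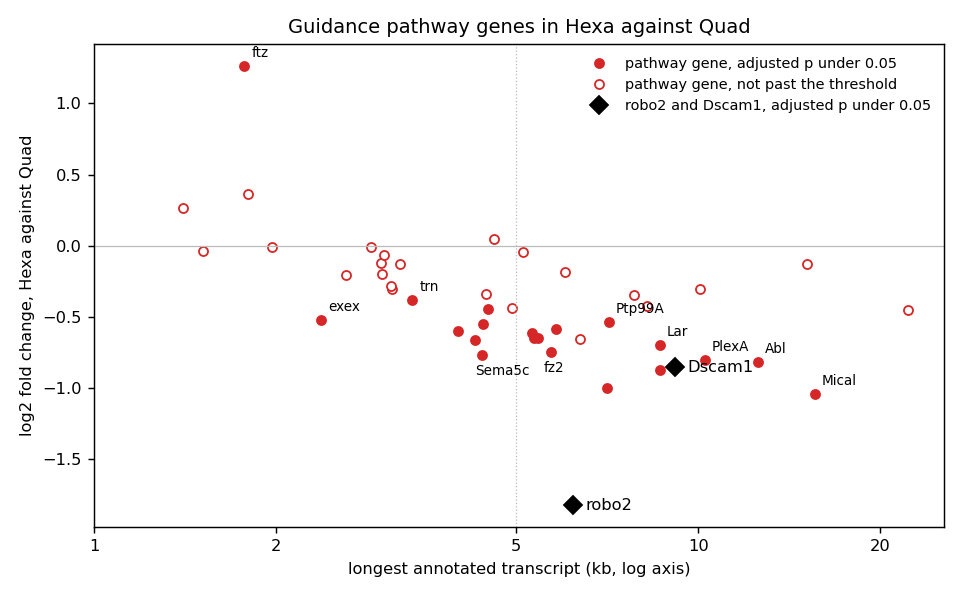
Log2 fold change in Hexa against Quad (vertical axis) of the 43 pathway genes and of robo2 and Dscam1 against the longest annotated transcript in kb (log axis), with filled symbols for adjusted p under 0.05 and a dotted line at 5 kb. Of 20 pathway genes right of the line 12 fell, and of 23 left of it 7 fell and ftz, which passed the filter on low values only through Hexa, was higher.

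Markers of the tissues that use these receptors were read in the same fit, and none was at 0 in all libraries. Sums over a list are weighted toward its most abundant gene. Control means were 71.4 RPKM for fne (neurons), 191.8 for nrv2 (glia) and 50.3 for spi (midline glia). Of the neuron list 4 of 16 genes had a row. Their sum was 83.2 to 115.1 RPKM for the controls, 91.6 to 111.5 for Quad and 103.2 to 141.8 for Hexa. ChAT, whose enzyme makes acetylcholine, rose in Hexa against control (log2 0.47, adjusted p = 0.0406) and did not pass when control 1, control 3, Hexa 1, Hexa 2 or any 1 Quad library was left out. The 3 midline glia genes with a row, of 7, summed to 76.9 to 83.0, 85.7 to 96.3 and 93.9 to 98.5 RPKM in the same order, and 1 of them, spi, rose in Hexa against control (68.6 against 50.3 RPKM, log2 0.45, adjusted p = 0.0173). The others did not pass, rho at log2 -0.36 (adjusted p = 0.161) and wrapper at log2 0.13 (adjusted p = 0.482). The 5 glial genes of 12 summed to 238.2 to 255.6, 273.5 to 287.0 and 221.6 to 263.4 RPKM, with Gli lower in Hexa against Quad. The 8 neuroblast genes of 12 summed to 64.5 to 73.5, 85.3 to 89.1 and 80.3 to 99.8 RPKM. Against the control 2 were higher in Quad and 4 in Hexa, where 2.16% and 19.1% of all genes were higher. nerfin-1, given above, is in both counts. In Hexa against Quad insb was higher (log2 0.71, adjusted p = 0.0434) and klu lower (log2 -0.57, adjusted p = 0.0104). There 13.5% of all genes were higher and 9.63% lower, and the median of the 8 was log2 -0.08.

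Outside the nervous system, the sums of the heart, tracheal and epidermal lists were lower in every Hexa library than in the other 6, and those of the muscle list overlapped. Most of the epidermal sum was knk (control mean 23.4 RPKM) and most of the muscle sum Act57B (control mean 7931 RPKM). How often groups lie apart over all genes was not computed. The 4 heart genes of 11 summed to 54.7 to 58.8 RPKM for the controls, 51.0 to 56.7 for Quad and 43.6 to 49.1 for Hexa, and svp fell in Hexa against both groups (log2 -0.44 and -0.51, adjusted p = 0.0487 and 0.0396). The 4 tracheal genes of 8 summed to 1375 to 1642, 1473 to 1533 and 994.1 to 1209 RPKM, with serp and verm lower in Hexa against both (log2 -0.47 and -0.44 against Quad, adjusted p = 0.0236 and 0.0347). The 7 muscle genes of 11 summed to 10987 to 12010, 10373 to 10611 and 9699 to 11366 RPKM, with kon and sls lower in Hexa against Quad, sls turning to log2 0.40 (adjusted p = 0.161) with the length trend subtracted. The 2 epidermal genes of 8, knk and sha, summed to 24.1 to 25.6, 23.8 to 27.8 and 11.6 to 20.5 RPKM, both lower in Hexa against Quad. Of all genes tested, 13.1% were lower in Hexa against control and 9.63% in Hexa against Quad. The part of any of these tissues in the levels of robo2 and Dscam1 was not tested.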

How the data were processed

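RNA-seq of 9 libraries was analysed from 1 table. Each library has 3 columns there, per the file headers: raw counts, linear RPKM and log2 RPKM. The aligner, counter, genome build and annotation are not given in the sources used here. Coordinates and sequences are left out. Per the labels' protocols reads were of 150 bp. The log2 RPKM the authors deposited were used, with the floor of -10.86 set to 0 RPKM, together with the deposited counts. The 9 linear RPKM columns were not used. Groups and library numbers come from the sample titles.

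Members and lists were chosen with earlier results of these data known. Genes reaching 0.5 RPKM in 3 or more libraries were fitted with limma 3.58.1 (R 4.3.3, trend and robust) on log2(RPKM + 0.1), all libraries in 1 fit with group as the only term. edgeR 4.0.16 and DESeq2 1.42.0 on the deposited counts were alternatives. The scripts were tested on simulated data. RPKM was the main measure, as the counts were taken to hold only part of the reads of genes with several transcripts, and they hold 0 for robo2. The 2 measures disagreed for many genes, and which of them is at fault was not tested. Counts matched RPKM times length times 1 constant per library (within 1% or 1 read) for 78.1% of the 2889 tested genes that have 1 transcript in the annotation and for 0.232% of the 3022 that have several. Transcript lengths are from the BDGP6 annotation of Ensembl, matched by name or synonym for 95.5% of tested genes. Named were both members, up to 4 genes per list by smallest p among those past the threshold, and the 3 most alike genes. Named beyond that rule, after their values were seen, were genes that did not pass (comm2, Dscam2, Dscam3, Dscam4, futsch, HGTX, eve, unc-4, rho, wrapper). The genes pnr, Mhc and mira met the rule, and their values are not given. The lists were partners of Robo and Slit, of Netrin, Frazzled and Dscam, semaphorins and plexins, ephrin and Wnt, receptor tyrosine phosphatases, adhesion, cytoskeletal effectors, transcription factors, and tissue markers.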

Additional observations from a re-analysis of the deposited data

How the results depend on the processing

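The number of members called in Hexa against Quad, 2 of 2, was the least stable value. It was 1 with a pseudocount of 0.01 or in the fit of the 2 groups only. It was 0 with no filter on low values, with the heat shock covariate, with edgeR or DESeq2 on the deposited counts, with the length trend subtracted and with the replicate block, and 0 to 2 when 1 library was left out. edgeR and DESeq2 give no value for robo2, whose count is 0. In Quad against control 0 members were called, 1 in the fit of the 2 groups only, 2 without control 2 and Hexa 2 together, and 0 to 1 when 1 library was left out. In Hexa against control it was 0, and 0 to 1 when 1 library was left out.

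Over all genes, 290 were called in Quad against control (132 to 363 without 1 library, 831 without control 2 and Hexa 2). In Hexa against control 1997 were called, 925 in the fit of the 2 groups, 574 with the heat shock covariate, 1033 by edgeR and 962 to 2199 without 1 library. In Hexa against Quad 1431 were called, 882 with the replicate block, 356 with the heat shock covariate, 686 by edgeR and 442 to 2004 without 1 library. The replicate numbers share only a number: deviations of same-numbered libraries correlated between -0.152 and 0.179. TMM factors on RPKM moved the share of higher calls from 59.3 to 46.4% in Hexa against control and from 58.4 to 44.9% in Hexa against Quad.

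The sign of Dscam1 in Hexa against control turned with the heat shock covariate (log2 0.0819), edgeR (0.32), DESeq2 (0.33), without control 2 (0.0261, the highest of the fits that left out 1 library, the lowest being -0.389), without control 2 and Hexa 2 (0.22) and with the length trend subtracted (0.0768). In Hexa against Quad Dap160 and Wnt5 turned on the counts (log2 0.0913 and 0.13 in edgeR, 0.10 and 0.14 in DESeq2), as did the muscle gene sls with the length trend subtracted (0.40). The cause of these changes was not tested. Total counts per library limit the precision of low genes such as ftz.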
